A study of Mus musculus with 4 samples.

Results

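Prdm16, Spag16, Trat1 and Meis2 are 4 of the 21933 genes counted in single nuclei from the right cerebral cortex of adult male mice. They were put together because earlier comparisons of these libraries had them higher in inhibitory neurons of CrT-KO mice, Meis2 in the somatostatin type, so their difference in inhibitory neurons is given here as a description, without a test. The CrT-KO mice were hemizygous for a deletion inside Slc6a8, the X-linked gene of the creatine transporter (CrT-/y), in every cell of the body, and the Control mice were their wild-type (CrT+/y) littermates. Both groups were on a C57Bl/6J background, received no treatment and were killed as adults, and each of the 2 Control and 2 CrT-KO libraries came from the nuclei of 1 animal, so that n was 2 per group throughout. The question addressed is in which nuclei the 4 genes were read, and where in the inhibitory population, and beyond it, the CrT-KO libraries stood above the Control libraries.

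Creatine, with phosphocreatine, buffers the supply of ATP, and neurons import part of it through Slc6a8. Inhibitory neurons release GABA. The cortex holds parvalbumin (PV), somatostatin (SST), VIP and LAMP5 interneurons, while the striatum below it is built mostly of GABAergic medium spiny neurons (MSN). Prdm16 encodes a zinc-finger transcription regulator of the PRDM family, known from brown fat, from radial glia and from astrocyte and ependymal lineages. Meis2 encodes a TALE homeodomain transcription factor, known as a marker of the striatal lineage and of olfactory bulb interneuron precursors. Spag16 encodes a protein of the central apparatus of motile cilia and the sperm tail, and Trat1 a transmembrane adaptor that stabilises the T cell receptor complex at the surface of T cells.

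All 4 symbols were found once in each library. Prdm16 lies on chromosome 4 (154316125 to 154636873, minus strand, GRCm38), Spag16 on chromosome 1 (69826970 to 70725132, plus strand), Trat1 on chromosome 16 (48730774 to 48772021, minus strand) and Meis2 on chromosome 2 (115863064 to 116065839, minus strand). No annotated protein-coding neighbour overlapped any of them. Their spans ran from 41248 bases for Trat1 to 898163 bases for Spag16, and reads from introns were counted, so levels are compared below between types of nuclei for 1 gene and never between genes. The closest neighbour of any member was Vwc2l, which begins 582 bases beyond the end of Spag16 on the same strand. Vwc2l held 1181 and 1412 UMIs (unique molecular identifiers, one per counted RNA molecule) in the Control and 1493 and 1041 in the CrT-KO inhibitory nuclei, a log2 fold change of -0.05 (SE 0.08), so the groups overlapped for the gene next to Spag16.

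The 250 bases in front of each annotated start are printed so that base composition and short motifs of the promoters can be compared. The 4 genes were grouped for being higher in CrT-KO inhibitory neurons, Meis2 in the somatostatin type. The sequences are RefSeq's, on build GRCm38.p6, 5′ to 3′ on the strand of the gene, from chr4:154636874-154637123 (minus) for Prdm16, chr1:69826720-69826969 (plus) for Spag16, chr16:48772063-48772312 (minus) for Trat1 and chr2:116064620-116064869 (minus) for Meis2. Capitals mark a match to 1 of the motifs searched.
Prdm16: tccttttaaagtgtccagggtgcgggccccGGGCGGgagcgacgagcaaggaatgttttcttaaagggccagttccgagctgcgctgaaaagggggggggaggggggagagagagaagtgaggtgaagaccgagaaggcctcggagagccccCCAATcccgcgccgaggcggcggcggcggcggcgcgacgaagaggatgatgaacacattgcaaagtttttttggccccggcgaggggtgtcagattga
Spag16: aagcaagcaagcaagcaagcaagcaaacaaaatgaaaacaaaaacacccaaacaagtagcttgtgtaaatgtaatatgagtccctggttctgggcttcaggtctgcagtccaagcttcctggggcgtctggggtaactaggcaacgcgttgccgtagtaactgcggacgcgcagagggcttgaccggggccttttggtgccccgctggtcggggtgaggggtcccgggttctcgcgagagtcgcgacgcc
Trat1: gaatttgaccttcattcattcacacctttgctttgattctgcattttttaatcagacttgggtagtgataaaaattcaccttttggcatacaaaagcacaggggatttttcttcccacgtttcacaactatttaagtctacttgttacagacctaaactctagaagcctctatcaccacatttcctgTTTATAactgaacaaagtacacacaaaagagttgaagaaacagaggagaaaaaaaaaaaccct
Meis2: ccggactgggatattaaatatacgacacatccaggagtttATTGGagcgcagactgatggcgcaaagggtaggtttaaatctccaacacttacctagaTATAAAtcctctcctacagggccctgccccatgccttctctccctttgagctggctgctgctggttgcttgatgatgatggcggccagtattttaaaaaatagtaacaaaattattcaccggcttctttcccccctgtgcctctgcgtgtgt

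The promoters had little in common. Over the window of 300 bases that runs from 250 before to 50 after the start, GC content was 61% for Prdm16, 58.3% for Spag16, 51.0% for Meis2 and 35.3% for Trat1, against a median of 52.7% over 32851 RefSeq promoters, of which 3.98% had a lower GC content than Trat1. The Trat1 window held 1 CpG, and those of Prdm16, Spag16 and Meis2 held 24, 20 and 13, against a median of 7. Searched on both strands, TATAAA was found for Trat1 and Meis2 (13.6% of all windows hold it), CCAAT for Prdm16 and Meis2 (37.4%) and GGGCGG for Prdm16 (35.7%), while TGACAG, the core of MEIS sites (19.2%), TGACGT (7.51%) and the E-box CACGTG (7.15%) were found in none of the 4, and Spag16 held no match to any. No motif was therefore present in all 4 windows. The Meis2 start used by RefSeq lies inside the annotated gene span.

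The files held 35694 nuclei, of which 34458 were kept after doublet removal, with 51507483 to 65240843 UMIs per library and a median of 5548 to 6700.5 UMIs per nucleus. Clustering, done without the 4 genes, gave 17030 excitatory and 7884 inhibitory neurons, with 1934 and 2047 inhibitory nuclei in the Control and 2114 and 1789 in the CrT-KO libraries, besides 5121 oligodendrocytes, 2230 microglia, 660 oligodendrocyte precursors, 493 astrocytes and 192 endothelial cells and pericytes. Of 35598 distinct barcodes, 96 occurred in more than 1 library. The tissue is labelled cortex, and its dissection was meant to leave the tissue below behind, but nuclei with MSN markers made up 31.4 to 36.5% of the inhibitory nuclei of each library. Of the 29 inhibitory sub-clusters, the one led by Cpa6, Lgr6 and Lgr5 held 6, 116, 18 and 14 nuclei and the one led by Calb2, Lgr5 and Grin2c held 6, 30, 6 and 5 (Control replicates 1 and 2, then CrT-KO replicates 1 and 2, the order used for all values below), so both came mostly from Control replicate 2. Both were rich in Meis2 and held no Prdm16, so the results for all inhibitory nuclei that they touch are given with and without them. Slc6a8 checked the genotype labels: it had 78, 65, 24 and 10 UMIs in inhibitory nuclei (log2 fold change -2.10; adjusted p = 0.0112 by edgeR).

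In the inhibitory nuclei as a whole, the fit across 12748 genes called 7 (0.0549%) at an adjusted p under 0.1, 2 of them higher in CrT-KO (0.0157%), and 645 genes had an unadjusted p under 0.05. These shares are the background of a contrast on which the genes were chosen, so whether they were called is not read as a result. Of the 2 genes called higher, Prdm16 had the larger difference (log2 fold change 1.39). The other was Ano2, a calcium-activated chloride channel outside the choice (0.94). Prdm16 held 34, 29, 97 and 71 UMIs, or 3.12, 2.33, 7.12 and 6.92 CPM, the counts scaled to 1000000 UMIs of the summed nuclei. Both CrT-KO libraries lay above both Control libraries, by 1.39 on the log2 scale (SE 0.24). Trat1 held 51, 62, 119 and 106 UMIs (4.67, 4.97, 8.74 and 10.3 CPM), again without overlap of the groups, with a log2 fold change of 0.99 (SE 0.20). Spag16 held 50, 55, 136 and 61 UMIs (4.58, 4.41, 9.99 and 5.94 CPM) with 0.86 (SE 0.24), and here CrT-KO replicate 2 lay close to the Control libraries. Meis2 was read far more often, 9113, 13740, 11954 and 9705 UMIs (835, 1102, 878 and 946 CPM), and the groups overlapped, with a log2 fold change of -0.07 (SE 0.11). Of all genes tested, 13.8% had both CrT-KO libraries above both Control libraries; since this contrast chose the genes, nothing is read from 3 of the 4 doing so.

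**Figure D1:**
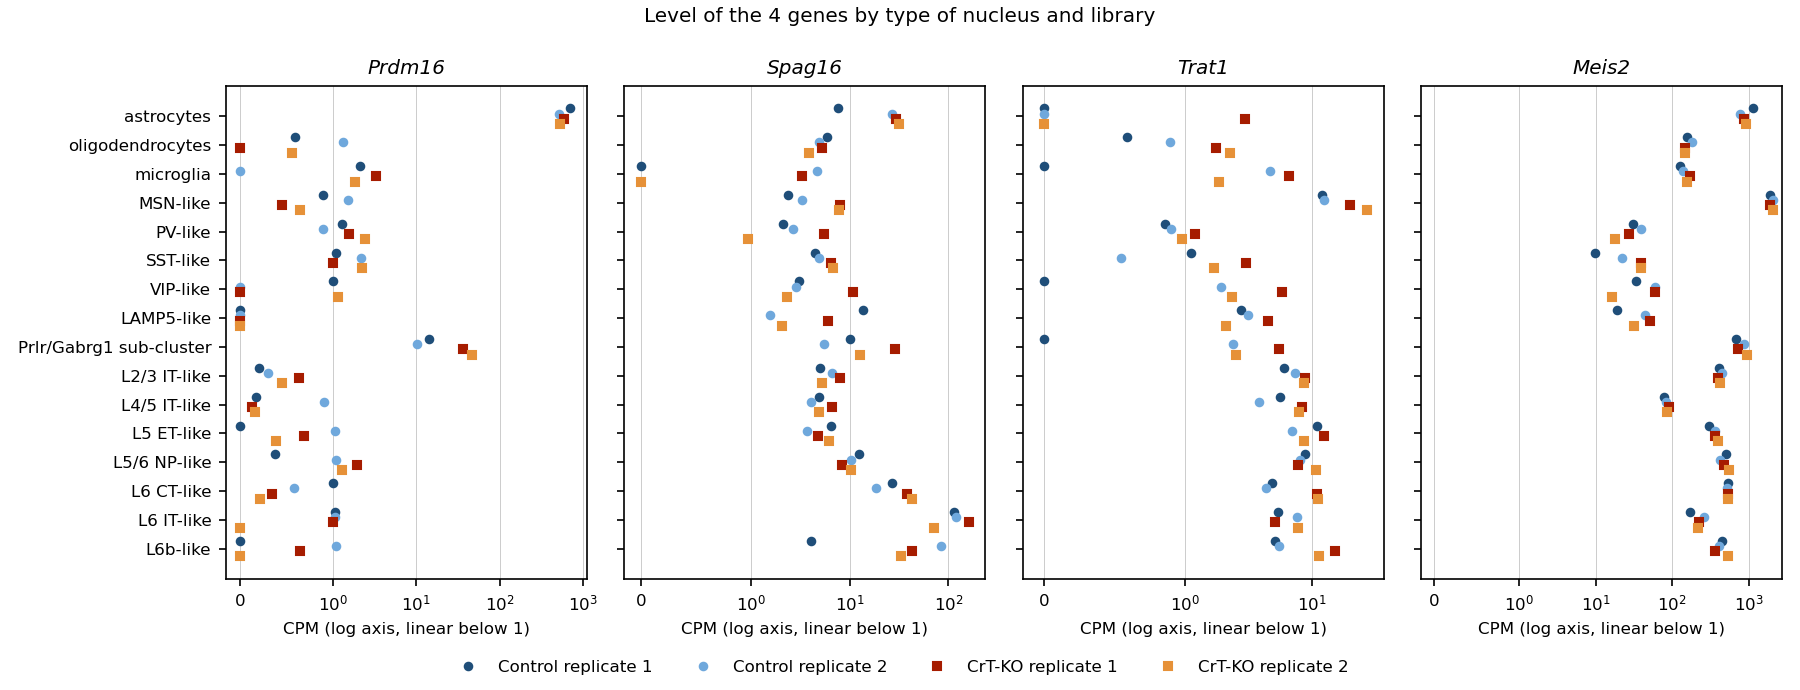
Level of each gene, in CPM (log axis, linear below 1), in the summed nuclei of each type, with 1 point per library (circles Control, squares CrT-KO). Prdm16 peaks in astrocytes (511 to 703 CPM), Spag16 in L6 IT-like nuclei, Trat1 in MSN-like nuclei, where both CrT-KO squares lie to the right of the circles, and Meis2 in MSN-like nuclei, where the 4 libraries coincide.

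Prdm16 was foremost an astrocyte transcript. Astrocytes held 93, 228, 199 and 167 UMIs (703, 511, 593 and 533 CPM), a mean of 585 ± 85.7 CPM (SD over 4 libraries), and the groups overlapped (log2 fold change -0.06 with an SE of 0.20; adjusted p = 0.999 by edgeR). Of the 4946 genes tested there, 0.0202% were called. Astrocytes stood above the next populations, a small group of inhibitory nuclei described below at 362 ± 94.3 CPM and an inhibitory sub-cluster led by Igfbpl1, Syne2 and Top2a at 96.1 ± 86.0 CPM, whose libraries held 8, 2, 21 and 4 UMIs. The latter did not differ from the sub-cluster led by Prlr and Gabrg1 (26.8 ± 17.3 CPM) beyond this spread, which also holds the difference between the groups. Across 19 types of nuclei, the genes whose level pattern was most like that of Prdm16 were Etnppl (Pearson r = 0.966), Gja1 (0.964) and Gjb6 (0.956), of which Gja1 and Gjb6 encode the astrocyte connexins. These correlations describe types that share 4 libraries and carry no test.

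Outside astrocytes the gene was close to absent from most neurons. PV-, SST-, VIP- and LAMP5-like interneurons together held 6, 6, 6 and 10 UMIs (0.94 to 1.94 CPM), and MSN-like nuclei 3, 6, 2 and 2 (0.45 to 1.51 CPM). Oligodendrocytes, a type not known to use the gene, held 1, 3, 0 and 1 UMIs (0 to 1.34 CPM). The levels in interneuron-like and MSN-like nuclei thus lay near that of oligodendrocytes, and neither population placed both CrT-KO libraries above the Control libraries. In MSN-like nuclei both CrT-KO libraries were the lower ones. Among the interneurons, PV-like nuclei alone held 3, 2, 4 and 5 UMIs (1.29, 0.90, 1.59 and 2.44 CPM), with both CrT-KO libraries higher. The groups overlapped in SST-, VIP- and LAMP5-like nuclei, and Prdm16 was too low in count for the test in all of these types. Excitatory neurons held 17, 26, 25 and 15 UMIs (log2 fold change -0.17 with an SE of 0.36; adjusted p = 0.925 by edgeR), and this small difference turned to 0.16 without Control replicate 2.

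The Prdm16 difference of inhibitory nuclei was concentrated in 1 of the 29 sub-clusters. This sub-cluster, led by Prlr (the prolactin receptor), Gabrg1 (a GABA-A receptor subunit) and Gpc5, held 166, 173, 245 and 180 nuclei and matched none of the interneuron or MSN marker sets well enough to be named. It held 17, 13, 66 and 55 Prdm16 UMIs (14.4, 10.3, 36.3 and 46.3 CPM), both CrT-KO libraries being above both Control libraries, as for 15.3% of the genes tested there, with a log2 fold change of 1.73 (SE 0.29). All inhibitory nuclei outside it held 17, 16, 31 and 16 UMIs. Leaving this sub-cluster out brought the log2 fold change of the inhibitory nuclei from 1.39 to 0.51 (SE 0.37). The 31 UMIs of CrT-KO replicate 1 outside it included the 21 UMIs of the sub-cluster led by Igfbpl1, Syne2 and Top2a.

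Dividing the sub-cluster further, again without the 4 genes, gave 9 groups, and 1 of them held most of its Prdm16 UMIs. This group of 49 nuclei was led, after Prdm16, by Ano1 (a calcium-activated chloride channel), Zic4 and Zic1 (zinc-finger transcription factors), Ano2, Clic4, Prkcd and Met (the hepatocyte growth factor receptor). It held 14, 5, 56 and 49 Prdm16 UMIs, against 3, 8, 10 and 6 in the rest of the sub-cluster. Of its 49 nuclei, 39 had at least 1 Prdm16 UMI. A repeat of the division with Ano2, the other gene called higher in CrT-KO inhibitory nuclei, also left out returned the same 49 nuclei.

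The number of such nuclei was higher in both CrT-KO libraries, while the Prdm16 level within them overlapped. The group had 5 and 2 nuclei in the Control libraries and 18 and 24 in the CrT-KO libraries, which is 0.259% (95% Wilson interval 0.110 to 0.604) and 0.0977% (0.0268 to 0.356) of the inhibitory nuclei against 0.852% (0.539 to 1.34) and 1.34% (0.903 to 1.99). These intervals cover counting error only, and since the group was picked for its Prdm16 no test is given; 2 libraries against 2 could in any case not give an exact permutation p below 0.333. Within the group the level was 443, 257, 439 and 308 CPM, or 2.80, 2.50, 3.11 and 2.04 UMIs per nucleus, and the groups overlapped. The Control level rests on 7 nuclei with 19 Prdm16 UMIs. Without the 49 nuclei the inhibitory log2 fold change was 0.50 (SE 0.33), and without the pair of sub-clusters that came mostly from Control replicate 2 it was 1.37 (SE 0.25).

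**Figure D2:**
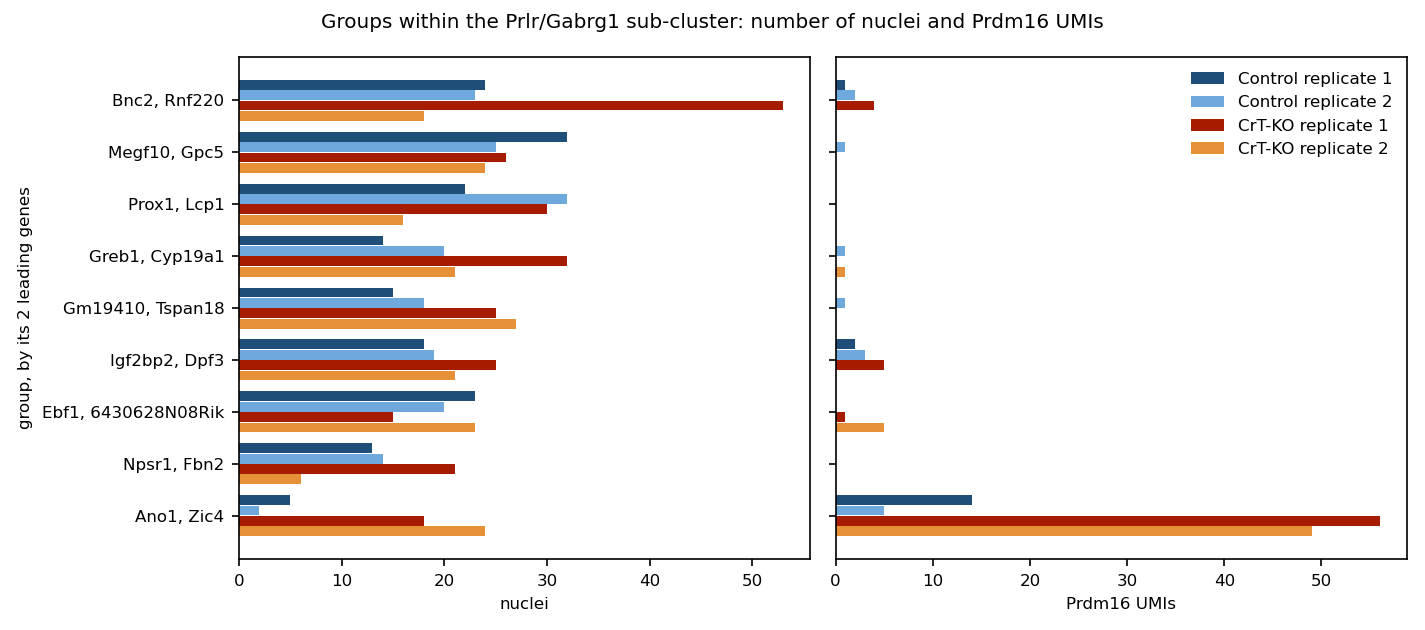
Number of nuclei (left) and of Prdm16 UMIs (right) per library in the 9 groups of the sub-cluster led by Prlr and Gabrg1, each named by its 2 leading genes other than the 4 studied. Only the bottom group, led by Ano1 and Zic4, holds many Prdm16 UMIs (14, 5, 56 and 49), and its number of nuclei (5, 2, 18 and 24) is likewise higher in both CrT-KO libraries.

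The 49 nuclei were left without a name. Sums are given for some marker lists only, not for those of VIP, LAMP5, subpallial GABAergic or subcortical glutamatergic neurons. Of the leading genes of the group, Zic1 is on the subpallial and Prkcd on the subcortical list. Of 9 SST markers, Sst, Cort, Crhbp and Myh8 were at 0, of 10 PV markers Pvalb and 4 others, and of 15 MSN markers Drd1, Pdyn, Ppp1r1b and Gpr6. The 6 inhibitory markers summed to 1298, 1539, 2943 and 1984 CPM, against 6690 to 7332 CPM in all inhibitory nuclei, 2610 to 3495 in the whole sub-cluster and 1341 to 1639 in MSN-like nuclei. The 10 excitatory markers summed to 1677, 2514, 1444 and 1833 CPM. All inhibitory nuclei had 1065 to 1193 and MSN-like nuclei 1888 to 1977. On the inhibitory sum both CrT-KO libraries lay above the range of MSN-like nuclei. The 15 MSN markers summed to 886, 1539, 1946 and 1683 CPM, far below the 10340 to 11990 of MSN-like nuclei. Of 8 astrocyte markers 5 were at 0, among them Aqp4, Gja1, Gfap and Gjb6, and the other 3 gave 7, 3, 20 and 24 UMIs, which is 222, 154, 157 and 151 CPM for the list, above the 74.9 to 82.1 CPM of all inhibitory nuclei. Of 10 ependymal markers 8 were at 0, Foxj1 among them, and the list gave 0, 0, 2 and 3 UMIs. All 7 T cell markers were at 0. Of 9 neuroblast markers 5 were at 0, Dlx2 and Top2a among them, and the list gave 10, 7, 31 and 27 UMIs. Its 316.5, 359.1, 243.3 and 169.5 CPM lay above the 123.9 to 141.9 of all inhibitory nuclei and the 126.8 to 165.6 of the sub-cluster. The part of these markers in the Prdm16 counts was not tested. Whether the group lies in the cortex or was carried over with deeper tissue was not tested. Ano2 itself was different: in inhibitory nuclei without the 49 it still held 369, 376, 829 and 558 UMIs, and most of it was read in MSN-like nuclei (325, 328, 762 and 514).

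Of 17 PRDM family members 12 were tested in inhibitory nuclei, with a median log2 fold change of 0.07, Prdm16 included, against -0.00 over all genes tested. Prdm16 itself, which was chosen on this contrast, was called by edgeR and not by DESeq2. Of the others, both tools called 0 and 1 had an unadjusted p under 0.05, where edgeR called 0.0549% of all genes. Mecom, the closest relative of Prdm16, held 6, 11, 34 and 5 UMIs, and its excess was in CrT-KO replicate 1 alone. Of 13 tested genes known as partners or targets of PRDM16, edgeR and DESeq2 called 0, 0 had an unadjusted p under 0.05, and the median was -0.06. In excitatory neurons both tools called 0 of 11 family members and 0 of 15 partners or targets, of which 1 and 0 had an unadjusted p under 0.05, where edgeR called 0.244% of all genes.

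Trat1, in contrast, was spread thinly over many neurons. MSN-like nuclei had the highest level of the named types, 17.9 ± 7.22 CPM over the 4 libraries. L5 ET-like (9.69 ± 2.42), L6b-like (9.22 ± 4.80), L5/6 NP-like (8.82 ± 1.31), L6 CT-like (7.82 ± 3.74) and L2/3 IT-like (7.72 ± 1.34) excitatory nuclei followed. Neighbours did not differ beyond this spread, which also holds the difference between the groups. In Control, L6b-like nuclei lay below L5/6 NP-like nuclei (5.29 ± 0.263 against 8.42 ± 0.452), and in CrT-KO above (13.2 ± 2.67 against 9.23 ± 2.07). Here IT, ET, NP and CT stand for the intratelencephalic, extratelencephalic, near-projecting and corticothalamic classes of cortical projection neurons. PV-like nuclei held 2, 2, 3 and 2 UMIs, astrocytes 0, 0, 1 and 0, and oligodendrocytes 1, 2, 3 and 4. No excitatory nucleus held more than 4 Trat1 UMIs and no inhibitory nucleus more than 5. The genes with the most similar pattern over 19 types were Kcnh3 (r = 0.961), a voltage-gated potassium channel of forebrain neurons, Lrrc6 (0.916) and Tmem116 (0.915).

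Within the inhibitory nuclei, most Trat1 UMIs lay in the MSN-like nuclei, which held 40, 49, 87 and 84 (12.0, 12.4, 19.8 and 27.2 CPM; log2 fold change 0.93, SE 0.23). Both CrT-KO libraries lay above both Control libraries there, as for 16.2% of the genes tested in MSN-like nuclei, and they did so in the 4 largest of the 7 MSN-like sub-clusters. The sub-cluster led by Drd2, Adora2a and Penk, the genes of indirect-pathway MSN, held 17, 27, 35 and 34 UMIs (12.6, 17.4, 23.4 and 34.6 CPM). That led by Ebf1 and Impg1 held 14, 13, 19 and 25, that led by Prkch and Ntn1 6, 5, 20 and 15, and that led by Casz1 and Sema5b 2, 2, 10 and 6. The 3 smaller sub-clusters held 0 to 3 Trat1 UMIs per library, with overlapping groups. The higher counts were not particular to MSN-like nuclei: the inhibitory nuclei outside both the MSN-like nuclei and the sub-cluster led by Prlr and Gabrg1 held 11, 10, 22 and 19 UMIs (1.72, 1.38, 2.97 and 3.17 CPM), a CrT-KO to Control ratio of 1.98 against 1.93 in MSN-like nuclei. Interneuron-like nuclei held 5, 7, 19 and 8 of these (0.91, 1.22, 2.97 and 1.55 CPM), also without overlap. After thinning each nucleus to 2000 UMIs, the share of MSN-like nuclei with a Trat1 UMI was 2.36, 2.84, 3.18 and 4.23%, against 5.52, 6.20, 9.65 and 12.3% before.

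Excitatory neurons, which played no part in the choice of the gene, also had more Trat1 in CrT-KO. They held 197, 202, 402 and 296 UMIs (5.59, 5.51, 9.29 and 8.59 CPM), the Control libraries close together and both CrT-KO libraries above them. The difference was a factor of 1.67, or 0.74 on the log2 scale (SE 0.13), and passed the test (adjusted p = 0.0549 by edgeR over 13954 genes). Of these genes 34 (0.244%) were called and 15 (0.107%) were called higher in CrT-KO, and 11.4% had both CrT-KO libraries above both Control libraries. Over 12 alternative analyses the log2 fold change stayed between 0.70 and 0.85 and the adjusted p ranged from 0.000257 to 0.286. The call at 0.1 was lost without Control replicate 1 (adjusted p = 0.258), without Control replicate 2 (0.286) and without the filter on low counts (0.114), and held in the other 9. Thinned to 2000 UMIs, 1.27, 1.03, 1.21 and 1.29% of excitatory nuclei had a Trat1 UMI, close to the level of a single molecule, and at that depth the groups overlapped, whereas the unthinned shares were 4.18, 4.17, 7.13 and 5.89%.

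By excitatory class, the size of the Trat1 difference varied. L6 CT-like nuclei held 24, 22, 63 and 51 UMIs (4.87, 4.30, 10.9 and 11.1 CPM), without overlap, by 1.29 on the log2 scale (SE 0.25; adjusted p = 0.129 by edgeR). Nearly all of that lay in the sub-cluster led by Syt6 and Foxp2, corticothalamic genes, with 11, 15, 54 and 40 UMIs, while that led by Cpa6 and Cntnap4 held 13, 7, 9 and 11. L4/5 IT-like nuclei held 33, 25, 63 and 49 UMIs, a log2 fold change of 0.84 with an SE of 0.26 (adjusted p = 0.249 by edgeR). L2/3 IT-like nuclei held 58, 74, 97 and 76 and gave 0.44 with an SE of 0.20 (adjusted p = 0.557 by edgeR), and L6b-like nuclei held 5, 5, 23 and 15 and gave 1.33 with an SE of 0.48 (adjusted p = 0.982 by edgeR). L5 ET-like and L5/6 NP-like nuclei had log2 fold changes of 0.26 and 0.15, with overlapping groups. Trat1 was called by edgeR, the 1 tool run by class, in none of these 6 classes, and its unadjusted p was under 0.05 in 4 of them, the L2/3, L4/5, L6 CT and L6b classes. Of all genes tested, edgeR called 0.47% in the L2/3, 0.81% in the L4/5, 0.195% in the L5 ET and 0.0284% in the L6 CT class, and 0% in the L5/6 NP and L6b classes, where 662 and 358 genes had an unadjusted p under 0.05. The smaller classes rest on few UMIs, and whether the classes differ from each other was not tested. L6 IT-like nuclei, too low in count for the test, held 5, 7, 5 and 6 Trat1 UMIs, with overlapping groups. Some excitatory sub-clusters carried no class name and were not tested by themselves. One of 1223 nuclei held 20 Trat1 UMIs in Control and 49 in CrT-KO, a CPM ratio of 2.54 without overlap. Another, of 843 nuclei, held 21 and 30, with overlapping groups. In the 3 classes with at least 100 Trat1 UMIs, L2/3 IT, L4/5 IT and L6 CT, both CrT-KO libraries exceeded both Control libraries, which 12.3, 13.4 and 14% of the genes tested in them did.

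**Figure D3:**
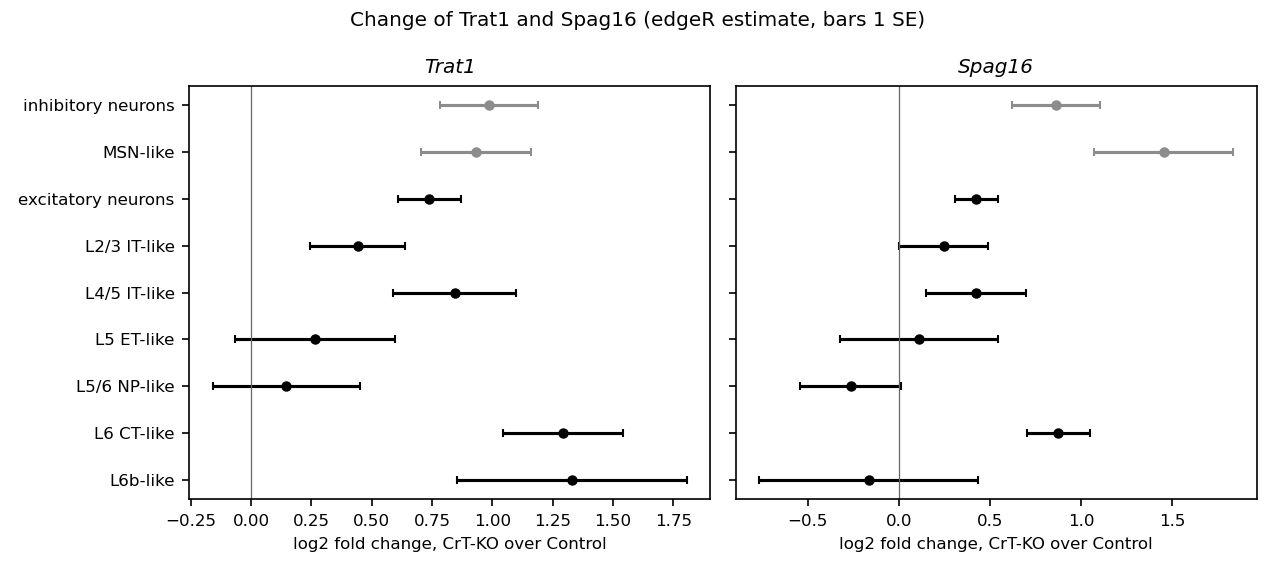
Log2 fold change of CrT-KO over Control (edgeR estimate, bars 1 SE) for Trat1 and Spag16 in inhibitory and MSN-like nuclei (grey, chosen on this contrast) and in excitatory neurons and 6 of their classes (black). For Trat1 the values lie above 0 in each population shown, from 0.15 in L5/6 NP-like to 1.33 in L6b-like nuclei. For Spag16 they range from -0.27 to 1.45. L6 IT-like nuclei, where Trat1 was too low in count for the test, are not shown.

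The defining markers of T cells were hardly read in these neurons, while several T cell receptor and adaptor genes were. The 7 T cell markers searched summed to 16, 15, 13 and 17 UMIs in all inhibitory nuclei and to 7, 13, 22 and 18 in all excitatory nuclei, with Cd3g, Cd2 and Cd8a at 0 in the inhibitory ones. Of 24 T cell receptor and adaptor genes, 19 were tested in excitatory neurons. Of these, 2 were called higher, Trat1 and Skap1, and 0 lower, where 0.107% of all genes were called higher. The list includes Trat1 and was made with earlier results of these data known, so no enrichment is read from the 2 calls. The median log2 fold change of the 19 was 0.03, against -0.01 over all genes tested. Skap1, a cytosolic adaptor that couples the T cell receptor to integrins, held 538, 661, 1401 and 962 UMIs, a log2 fold change of 0.90 (SE 0.11). In inhibitory nuclei 13 were tested, edgeR and DESeq2 called 0, 4 had an unadjusted p under 0.05, the median was 0.0038 and Skap1 held 74, 107, 129 and 114 UMIs (0.42, SE 0.19). Of the 2 flanking genes of Trat1, Morc1 held 142, 92, 158 and 94 UMIs in excitatory neurons (log2 fold change 0.03) and Retnlb no more than 3 in any library.

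Spag16 was carried by few nuclei with many molecules. In excitatory neurons it held 417, 470, 750 and 504 UMIs, and 93 of the 17030 nuclei, those with 5 or more, held 1170 of these 2141 UMIs, up to 50 in 1 nucleus. Such nuclei were found in 2 main places. A sub-cluster led by Cpa6, Cntnap4 and Ror2 within the L6 CT-like class held 34 of them with 525 UMIs, and a sub-cluster of L6 IT-like nuclei, led by Npsr1 and Tll2, held 31 with 349 UMIs. By class, the level was highest in L6 IT-like nuclei (117 ± 36.3 CPM), then in L6b-like (41.2 ± 33.2) and L6 CT-like nuclei (31.6 ± 11.2), which did not differ beyond their spread, and all 3 are deep-layer classes. Upper-layer classes lay between 4.09 and 8.05 CPM per library. Oligodendrocytes held 10, 11, 9 and 7 UMIs (3.92 to 5.92 CPM), so the upper-layer and interneuron levels were close to that of a glial type. Astrocytes held 1, 12, 10 and 10 UMIs (24.0 ± 11.2 CPM), a range that overlapped that of L6 CT-like nuclei. The genes with the most similar pattern over 19 types were Col23a1 (r = 0.831), a transmembrane collagen, Maats1 (0.805), a cilium gene, and Sema4a (0.798).

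**Figure D4:**
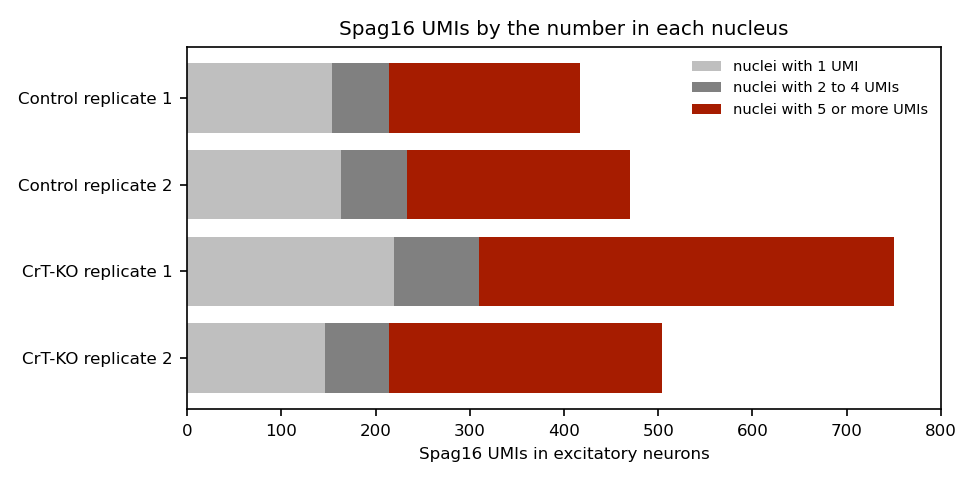
Spag16 UMIs of excitatory neurons in each library, split by the number of UMIs in the nucleus they came from (1, 2 to 4, or 5 and more). Nuclei with 5 or more UMIs hold 203, 237, 440 and 290 UMIs, between 48.7 and 58.7% of the library's Spag16.

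Over all excitatory neurons the Spag16 difference was 0.42 on the log2 scale with an SE of 0.12 (11.8, 12.8, 17.3 and 14.6 CPM; adjusted p = 0.264 by edgeR), and it was not called. Over 12 alternatives it ranged from 0.27 to 0.52 with an adjusted p from 0.0113 to 0.736, and it was called in 2 of them, with the replicate number as a block (0.0113) and without CrT-KO replicate 2 (0.0351). L6 CT-like nuclei had the largest difference of the classes tested, with 132, 94, 219 and 198 UMIs (26.8, 18.4, 38.1 and 43.3 CPM), both CrT-KO libraries above both Control libraries, and a log2 fold change of 0.87 with an SE of 0.17 (adjusted p = 0.138 by edgeR over 10567 genes). The nuclei with 5 or more UMIs numbered 9, 6, 8 and 11 in this class and held 98, 72, 185 and 170 UMIs, 10.9, 12.0, 23.1 and 15.5 per such nucleus. All other L6 CT-like nuclei held 34, 22, 34 and 28 UMIs. These are 34 nuclei grouped by their own Spag16 count, with up to 50 UMIs in 1 of them, so the values per nucleus are a description. In L6 IT-like nuclei the counts were 107, 111, 157 and 56 (log2 fold change 0.05, SE 0.21), in L6b-like nuclei 4, 77, 66 and 44 (-0.16, SE 0.60), and in L5/6 NP-like nuclei 33, 28, 26 and 24 (-0.27, SE 0.28), with overlapping groups in the former 2 and both CrT-KO libraries lower in the last. The excitatory sub-cluster of 1223 nuclei without a class name held 58 Spag16 UMIs in Control and 139 in CrT-KO, without overlap. Its CPM ratio was 2.52, against 1.80 in L6 CT-like nuclei, and it was not tested by itself. In it 2, 1, 6 and 4 nuclei held 5 or more UMIs, with 18, 11, 62 and 43 UMIs in all. That of 843 nuclei held 18 and 23 Spag16 UMIs, with overlapping groups. The difference between classes was not tested.

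Among inhibitory nuclei, Spag16 was read in several places at low counts. MSN-like nuclei held 8, 13, 35 and 24 UMIs (2.40, 3.28, 7.96 and 7.79 CPM), both CrT-KO libraries above the Control libraries, with a log2 fold change of 1.45 (SE 0.38). Of these, a sub-cluster led by Folh1, Stac and Glis3 held 0, 4, 17 and 9. Its 189 nuclei held only 14 UMIs of Meis2, the striatal lineage marker, a mean of 23.95 CPM. The 4 largest MSN-like sub-clusters had means of 1665 to 2664 CPM of Meis2. The sub-cluster led by Prlr and Gabrg1 held 12, 7, 52 and 15 Spag16 UMIs, and here CrT-KO replicate 1 stood apart. Interneuron-like nuclei held 21, 19, 44 and 17, again with CrT-KO replicate 1 alone above the rest. Without CrT-KO replicate 1 the inhibitory log2 fold change fell from 0.86 to 0.45 (SE 0.31). In the group of 49 nuclei led by Ano1 and Zic4, Spag16 held 0, 0, 20 and 6 UMIs, in 9 nuclei, of which 7 also held Prdm16. Across all inhibitory nuclei, 229 held Spag16, 121 held Prdm16 and 10 held both.

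Spag16 itself was not called in excitatory neurons, and 1 gene of motile cilia was. Of 28 such genes, 24 were tested in inhibitory nuclei, edgeR and DESeq2 called 0 (0.0549% of all genes were called), 2 had an unadjusted p under 0.05, and their median log2 fold change was 0.07. In excitatory neurons 27 were tested, 6 had an unadjusted p under 0.05 and 1 was called (0.244% of all genes were). This was Cfap299, which is linked to cilia and sperm flagella, with 437, 433, 760 and 646 UMIs (0.63, SE 0.11). The list was made with earlier results of these data known, so no enrichment is read from the 1 call. The median of the 27 was -0.00. The 10 ependymal markers, whose cells carry motile cilia, summed to 12.9, 12.8, 12.9 and 15.7 CPM in inhibitory nuclei, with Rarres2 and Mia at 0.

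Meis2 was read at high levels in several inhibitory populations. MSN-like nuclei, the highest of the named types, held 6382, 8132, 8230 and 6402 UMIs (1913, 2052, 1872 and 2077 CPM), and the groups coincided, with a log2 fold change of 0.01 (SE 0.12). The highest levels were those of the sub-cluster led by Igfbpl1, Syne2 and Top2a (505, 581, 548 and 508 UMIs; mean 6218 ± 761 CPM), of which Top2a encodes a topoisomerase of dividing cells, of the sub-cluster led by Cpa6, Lgr6 and Lgr5 (83, 1762, 318 and 193 UMIs; 5038 ± 741 CPM) and of that led by Chst9, Adamts9 and Npffr2 (3452 ± 224 CPM). The first pair did not differ beyond their spread. Astrocytes held 921 ± 157 CPM and the sub-cluster led by Prlr and Gabrg1 800 ± 128. L6 CT-like (531 ± 9.81 CPM), L5/6 NP-like (488 ± 57.8), L6b-like (440 ± 75.6) and L2/3 IT-like nuclei (414 ± 21.5) followed. PV-like nuclei were among the lowest, at 30.9, 38.8, 27.4 and 18.04 CPM, as were SST-like nuclei at 27.4 ± 14.0 CPM. Over 19 types the most similar patterns were those of Rap2b (r = 0.829), Pigg (0.806) and Wfs1 (0.801).

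The Meis2 difference over all inhibitory nuclei changed sign with the libraries included. Without Control replicate 1 the log2 fold change was -0.29, and without Control replicate 2, whose 116 nuclei led by Cpa6, Lgr6 and Lgr5 alone gave 1762 of its 13740 UMIs, it was 0.18. With all 4 libraries but without both sub-clusters that came mostly from Control replicate 2, it was -0.01 (SE 0.10). Excitatory neurons held 10964, 11644, 13918 and 11511 UMIs (log2 fold change 0.11 with an SE of 0.07; adjusted p = 0.689 by edgeR), and astrocytes 150, 340, 290 and 290 (-0.04 with an SE of 0.20; adjusted p = 0.999 by edgeR).

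In SST-like nuclei, for which Meis2 was chosen, it held 18, 41, 77 and 69 UMIs in 269, 256, 257 and 281 nuclei (9.94, 22.3, 38.6 and 38.8 CPM). Both CrT-KO libraries lay above both Control libraries, as for 14.6% of the genes tested there, by 1.28 on the log2 scale (SE 0.26). Of the 8948 genes tested there, 15 were called (0.168%) and 10 called higher (0.112%), shares from which nothing is read for Meis2, since the contrast chose it. Among the genes called higher, Caln1, with 0.82, came next to Meis2 by size of the difference. The Control libraries differed more than 2-fold from each other, and without Control replicate 2 the log2 fold change was 1.99. Against the 1872 to 2077 CPM of MSN-like nuclei, the level in SST-like nuclei was low in each library.

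The SST-like counts were unevenly spread over nuclei. In the CrT-KO libraries, 4 and 3 nuclei held 5 or more Meis2 UMIs, up to 14, and together 33 UMIs in each library, whereas no Control nucleus held more than 4. The remaining SST-like nuclei held 18, 41, 44 and 36 UMIs (9.94, 22.3, 22.7 and 20.8 CPM), a comparison that the division itself shapes, since it takes nuclei from the CrT-KO libraries alone. After thinning to 2000 UMIs, 3.40, 3.92, 5.88 and 5.02% of SST-like nuclei held a Meis2 UMI, and before thinning 5.95, 12.1, 14.8 and 12.5%.

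**Figure D5:**
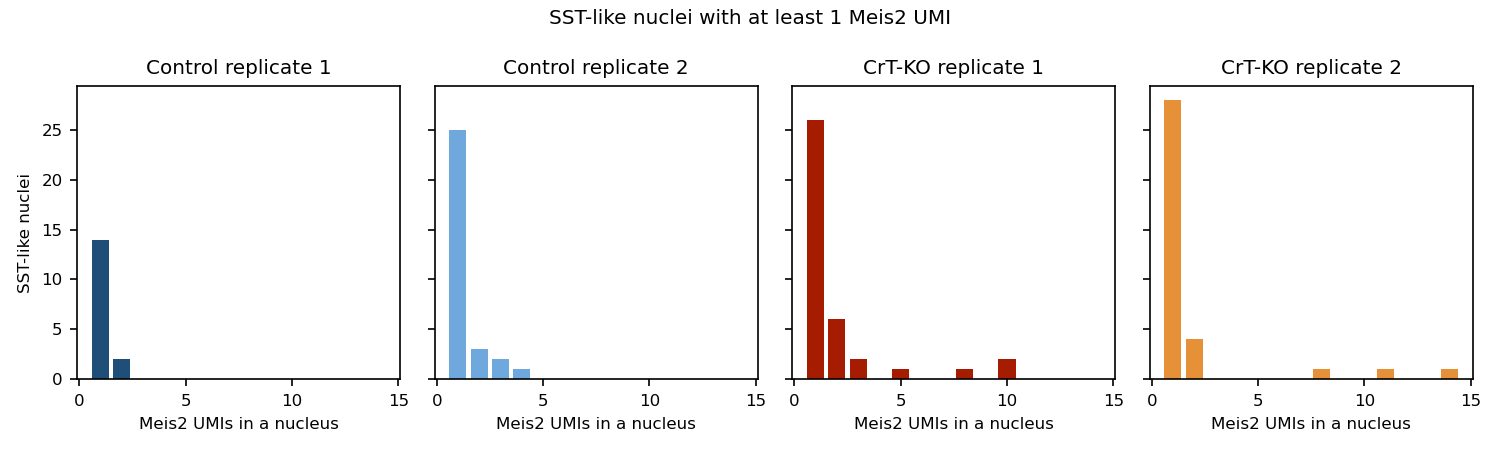
Number of SST-like nuclei by their count of Meis2 UMIs, for nuclei with at least 1, in each library. Most hold 1 UMI in each library (14, 25, 26 and 28 nuclei), and the 7 nuclei with 5 to 14 UMIs are all from CrT-KO libraries.

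The 7 nuclei had 7610 to 19440 UMIs in all, above the SST-like medians of 5965 to 7178 per library, and 0 to 2 Sst UMIs. The 9 SST markers summed to 1906 to 2054 CPM in all SST-like nuclei of a library. In the 7 nuclei they held 28, 31, 20, 29, 9, 8 and 16 UMIs. Those nuclei had 16657, 14968, 19440, 13891, 7610, 11205 and 12782 UMIs in all, in that order. Their MSN markers came to 23.8 to 88.0 per 10000 UMIs, whereas the SST-like nuclei of each library had 22.5 to 24.7, with Adora2a the only 1 of the 15 markers at 0. Whether these nuclei include pairs of nuclei missed by the doublet caller was not tested. The sub-cluster of SST-like nuclei led by Nos1 (neuronal nitric oxide synthase), Hhip and Tacr1 held 3 of the 7 and 0, 3, 15 and 26 Meis2 UMIs, among 24, 26, 39 and 31 nuclei.

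In the other interneuron types the order of the libraries was different. PV-like nuclei held 72, 86, 69 and 37 Meis2 UMIs, both CrT-KO libraries below both Control libraries (log2 fold change -0.59, SE 0.22), which 18% of the genes tested in them did. VIP-like nuclei held 33, 63, 72 and 14 (-0.22, SE 0.38) and LAMP5-like nuclei 7, 28, 34 and 15 (0.31, SE 0.36), with overlapping groups. Of the TALE homeobox genes, the family of Meis2, edgeR and DESeq2 called 0 of 11 tested in inhibitory nuclei (median log2 fold change -0.02, 1 with an unadjusted p under 0.05) and 0 of 11 in excitatory neurons (0.05, 0). They also called 0 of 18 tested transcription factors of the striatal lineage (median -0.03) and 0 of 24 of the interneuron lineage (median -0.04) in inhibitory nuclei, of which 0 had an unadjusted p under 0.05, and in excitatory neurons 0 of 16 and 0 of 18, of which 3 and 2 had one. Since edgeR called 0.0549% of all genes in inhibitory and 0.244% in excitatory nuclei, counts of 0 in lists of this size do not set them apart.

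The 4 genes overlapped to different degrees. Over 19 types, the Pearson correlation between their levels was highest for Trat1 and Meis2 (0.605) and lowest for Prdm16 and Trat1 (-0.448). Among inhibitory nuclei, 292 held a Trat1 UMI and 249 of these also a Meis2 UMI, which was found in 4012 of 7884, while 4 nuclei held both Trat1 and Prdm16 and 7 both Trat1 and Spag16.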

How the data were processed

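Single nuclei of 2 Control and 2 CrT-KO mice were sequenced with 10x 3′ chemistry. The deposited values are raw UMI counts per gene and nucleus, which the authors made with Cell Ranger 3.1.0 on GRCm38 with introns counted; Seurat 3.1.4 and FastQC are named in the submitters' processing notes. The 12 files (matrix, features and barcodes of 4 libraries) were read as deposited.

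Doublets called by Scrublet within each library (1236 nuclei, 2.91 to 4.17% per library) were left out. Nuclei were clustered with scanpy 1.11.5 and igraph 0.11.9 (3000 variable genes, 30 components, 20 neighbours, Leiden resolution 1) without the 4 genes, neurons were clustered again within each class, and clusters were named from marker lists. Of the 34458 nuclei kept, 848 stayed unnamed, 732 of them from 4 inhibitory sub-clusters that were set aside for markers of other classes. Besides these, some sub-clusters of the inhibitory and excitatory neurons matched no finer type well enough and were left without a class name. The thresholds for naming were set after seeing the data, and the 4 genes and all lists were chosen with earlier results of these data known.

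Counts were summed per library and population and tested with edgeR 4.0.16 (quasi-likelihood test, TMM scaling, low-count filter), with Benjamini-Hochberg adjustment over all genes tested and a threshold of 0.1 as in the study, in place of the study's test over nuclei. In simulated counts, 200 of the 12748 genes of the inhibitory comparison were changed. Of the genes changed 2-fold 86% were recovered, and of those changed 4-fold 97%, with 8 false calls. The real comparison called 7 genes, and the simulated spread followed the trend over genes. These shares therefore need not hold for genes with low counts. Populations used in choosing the genes are given without p-values. Genes called, gene lists and members were also computed under DESeq2 1.42.0 and the alternatives listed at the end. Similar patterns are the 3 highest Pearson correlations over 19 types among genes with at least 200 UMIs, and nuclei were thinned to 2000 UMIs where shares are compared. With 2 animals per group, p-values measure the spread between these 4 libraries. Nuclei of 1 library are not replicates.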

Additional observations from a re-analysis of the deposited data

Results flagged for a closer look

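These ratios of CrT-KO to Control mean CPM are listed because every library of one type moved against every library of another, or because they lie in nuclei outside the comparisons. None of the differences between types was tested.

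Spag16 was higher in both CrT-KO libraries of L4/5 IT-like (ratio 1.28) and L6 CT-like nuclei (1.80) and lower in both of L5/6 NP-like nuclei (0.817). Meis2 was higher in both CrT-KO libraries of microglia (1.24), SST-like (2.40), L4/5 IT-like (1.08), L5 ET-like (1.14) and L6 CT-like nuclei (1.03), and lower in both of oligodendrocytes (0.867) and PV-like nuclei (0.653). Several of these ratios are close to 1. Among types with at least 100 UMIs of the gene, the groups overlapped in 8 for Meis2 and in 3 for Spag16. Both CrT-KO libraries were higher for 13.4% of all genes tested in L4/5 IT-like, 14% in L6 CT-like and 14.6% in SST-like nuclei. Both were lower for 18% in PV-like nuclei. No such share is given for the other types, and the SST-like contrast chose Meis2, so nothing is read from these directions.

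In the 848 unnamed nuclei the ratio was 2.80 for Prdm16 and 3.66 for Spag16. For Spag16, 39 UMIs of CrT-KO replicate 2 came from 1 set-aside sub-cluster with a median of 743 UMIs per nucleus, and 31 of them from a single nucleus.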

How the results depend on the processing

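Of 305 values computed under alternatives for 31 results, 246 kept their direction and their side of the threshold or stayed near their value; the cause of the other changes was not tested. With 2 animals per group, the low counts of Spag16 and Trat1 limit what single classes can show. The genes called in inhibitory nuclei (7) became 52 with no filter on low counts, 26 with a gate on Gad1, Gad2 and Slc17a7 in each nucleus, 23 without the sub-clusters mostly from Control replicate 2, 12 without the sub-cluster led by Prlr and Gabrg1, and 13 to 33 with 1 library left out. The genes of the lists called there (1) became 0 under DESeq2, 3 with no filter, 2 with the gate, 2 without the sub-clusters mostly from Control replicate 2, 0 without the group led by Ano1 and Zic4, 0 in interneuron-like nuclei alone, and 0 to 2 with 1 library left out. The excitatory calls (34) became 71 under DESeq2, 13 with no filter, 15 at a threshold of 0.05, and 6 (without Control replicate 2) to 199 (without CrT-KO replicate 2) with 1 library left out.

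The labels do not say that replicate numbers pair the libraries, and the deviations of same-numbered libraries correlated by 0.136 in inhibitory and 0.159 in excitatory nuclei, across genes. With the replicate number as a block, the genes called were 75 in inhibitory nuclei, 4 of the lists among them, and 805 in excitatory neurons, with Spag16 there at 0.42 and past the threshold.

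On the log2 scale, inhibitory Prdm16 fell to 0.50 without the group led by Ano1 and Zic4 and 0.51 without the sub-cluster led by Prlr and Gabrg1, alternatives added after seeing the data. Inhibitory Trat1 was 1.12 with the gate, and excitatory Trat1 0.74 with no filter, where its call was lost. Inhibitory Meis2 turned to 0.18 without Control replicate 2, 0.0059 without CrT-KO replicate 1 and 0.11 in interneuron-like nuclei alone, and excitatory Prdm16 to 0.16 without Control replicate 2. Spag16 in SST-like nuclei was 0.59 with doublets kept. With each library left out in turn, the ranges were 0.84 to 1.14 for Trat1, 0.45 to 1.14 for Spag16 and -0.29 to 0.18 for Meis2 in inhibitory nuclei, 0.70 to 0.78 for Trat1, 0.32 to 0.52 for Spag16 and -0.44 to 0.16 for Prdm16 in excitatory neurons, and 0.44 to 0.62 for Spag16 and 0.80 to 1.99 for Meis2 in SST-like nuclei. Mean levels ranged from 4.12 to 5.72 CPM for inhibitory Prdm16, 6.13 to 8.01 for inhibitory Trat1 and 6.56 to 7.82 for excitatory Trat1. Astrocyte Prdm16 was 442 CPM with doublets kept, against 585. The share of the sub-cluster led by Prlr and Gabrg1 differed by 1.48 percentage points with the 4 genes kept in the clustering, against 2.31.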
